A study of Mus musculus with 12 samples.

Results

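Hearts of mice given busulfan and an FMT of the AOS kind were compared with hearts of mice given busulfan alone, across all genes. The comparison used 6 of the 12 RNA-seq libraries of the series, 3 in each group, chosen by their treatment labels, and 17536 genes were listed in each. The mice belonged to the outbred ICR stock and were 10 weeks old. Replicates 1 to 3 of the AOS-FMT group were labelled B with AOS at 10 mg/kg and FMT, and replicates 1 to 3 of the busulfan group were labelled busulfan at 20 mg/kg. The other 6 libraries were busulfan with Con-FMT and control, 3 each, and they entered the same fit. The labels spell out neither AOS nor FMT, give no busulfan dose for an FMT group and name no donor. They number the replicates without saying that each is a separate animal, so a p-value here speaks only of the spread among the sequenced samples, and some of that spread may be technical. The stated aim of the series was to explore what FMT does in a heart damaged by busulfan.

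Busulfan is an alkylating agent that cross-links DNA and is used to empty the bone marrow before a stem cell transplant. FMT commonly stands for faecal microbiota transplantation, in which gut bacteria of a donor are passed to a recipient. Immediate early genes, which encode transcription factors of the FOS, JUN, ATF and NR4A families, are switched on within minutes of a hormone, cytokine or mechanical signal, without new protein synthesis. In one such route cAMP activates protein kinase A, CREB binds the cAMP response element of its target promoters, and SIK1, itself a CREB target, feeds back on the CREB coactivators. IRS2, another CREB target in mouse liver and pancreatic islets, carries the signal of the insulin and IGF1 receptors into the cell.

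Library totals ran from 11333650 to 14335688 estimated read counts, and 13489 genes passed the filter on low counts. Levels are given in CPM, read counts relative to library size, scaled by TMM, a correction for unequal library composition. Fold changes are log2 values of AOS-FMT over busulfan. The value after ± is an approximate standard error. It is the absolute log2 fold change divided by the square root of the F statistic of the edgeR test. A gene was called where the quasi-likelihood test of edgeR, after Benjamini-Hochberg adjustment across the 13489 genes, gave an adjusted p under 0.05. Defining transcripts of heart muscle were abundant in all 6 libraries: Myh6, the main myosin heavy chain, had at least 40905 CPM, and Tnnt2, cardiac troponin T, at least 6743 CPM. Atrial and liver transcripts were unequal between libraries. An atrial score was taken as the average log2 CPM of the atrial genes Sln, Myl4, Myl7 and Bmp10, and it was 6.57, 10.4 and 9.50 in the AOS-FMT libraries, against 0.17, 3.94 and 7.28 in the busulfan libraries. It was 3.48, 0.82 and 6.25 in Con-FMT and 6.04, 10.3 and 9.88 in control. The liver score was the mean log2 CPM of the plasma protein genes Alb, Apoa1, Apoa2, Ttr, Fgb and Serpina1c. It was 2.75, 2.90 and 5.87 in AOS-FMT, against 1.53, 1.66 and 1.56 in busulfan. It was 2.56, 1.01 and 1.63 in Con-FMT and -0.55, -0.46 and -1.45 in control, where it was lower than in any other library. Both scores are set beside the results they move with. The labels name the heart and no chamber, and in such bulk tissue fewer cells of a type and less RNA per cell cannot be told apart.

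Transcripts of Atf3, Fosl2, Sik1, Irs2, Slc25a25 and Hp rose in AOS-FMT hearts. These 6 genes are 0.0445% of the 13489 tested. No gene was called lower by edgeR, where the smallest adjusted p among lower genes was 0.113. Without adjustment, 1052 genes (7.8% of those tested) were higher and 789 (5.85%) lower at p under 0.05, and DESeq2 called 100 higher and 31 lower. Both DESeq2 and limma-voom, which called 4 higher and 0 lower, were run as alternatives.

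**Figure D1:**
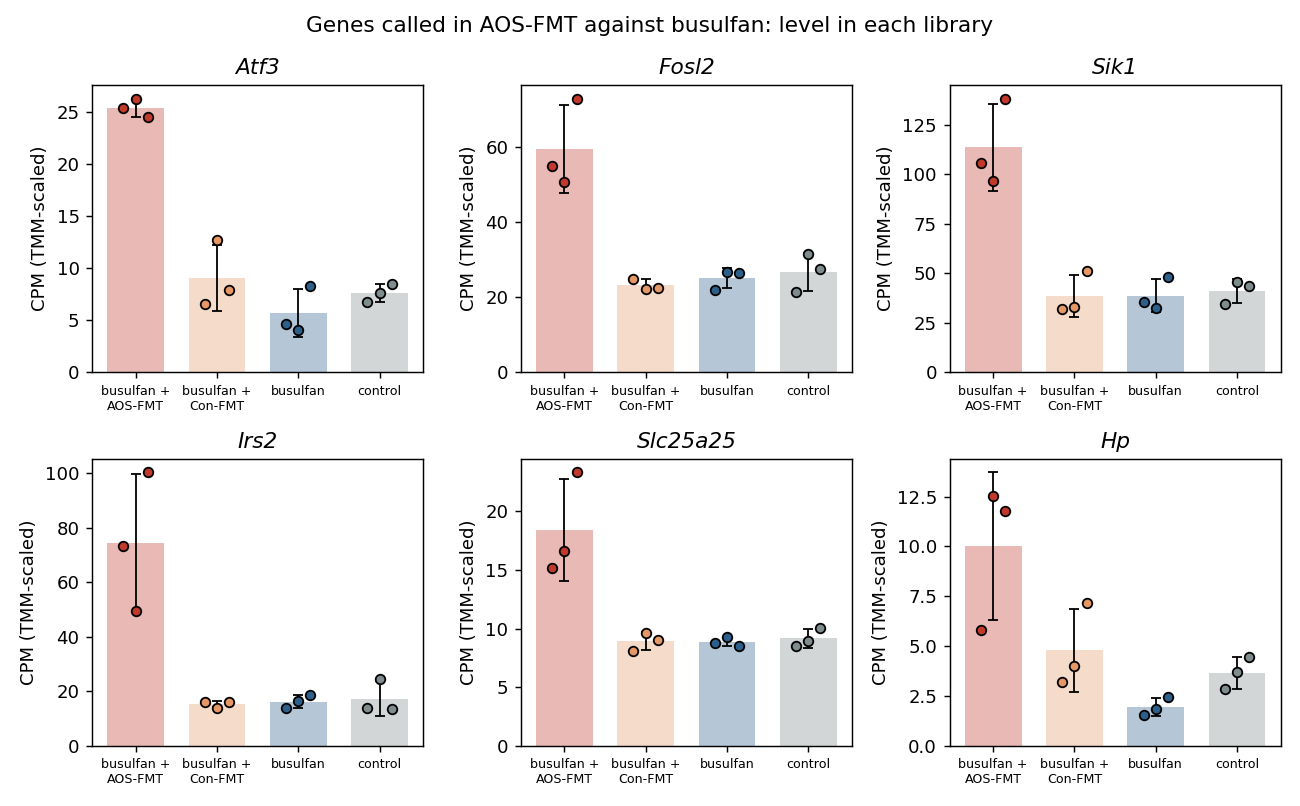
Level of each of the 6 called genes in CPM, by group. Bars and whiskers give the mean and SD of 3 libraries, and points are single libraries. The 3 AOS-FMT libraries lie above the 3 busulfan libraries in each panel, and for Hp the lowest AOS-FMT library (5.79 CPM) lies below the highest Con-FMT library (7.16 CPM).

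Atf3 and Fosl2 encode bZIP transcription factors that bind AP-1 or CRE sites. Atf3 (NCBI gene 11910, chromosome 1, 191170296 to 191183333 in GRCm38.p6), a stress-induced factor that mostly represses its targets as a homodimer, had 25.4, 26.3 and 24.6 CPM in AOS-FMT, against 4.61, 4.07 and 8.29 CPM in busulfan. The AOS-FMT libraries stood close together and all were at least 24.6 CPM, and no other library of the series exceeded 12.7 CPM. The log2 fold change was 2.17 ± 0.27 (edgeR adjusted p = 0.0189). Fosl2 (14284, chromosome 5, 32136472 to 32157840), the FOS-family protein Fra-2, had 54.9, 50.7 and 72.9 CPM in AOS-FMT and 21.9, 26.6 and 26.5 CPM in busulfan, and the groups did not overlap. Its log2 fold change was 1.25 ± 0.16 (edgeR adjusted p = 0.0189).

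Sik1 and Irs2 belong to kinase signalling. Sik1 (17691, chromosome 17, 31844248 to 31855804), a salt-inducible kinase that restrains the CREB coactivators, had 106, 96.6 and 138 CPM in AOS-FMT and 35.2, 32.4 and 48.1 CPM in busulfan. Its lowest AOS-FMT library was above every library of the other 3 groups, whose highest value was 50.8 CPM. The log2 fold change was 1.56 ± 0.21 (edgeR adjusted p = 0.0256). Irs2 (384783, chromosome 8, 10984681 to 11008929) had 73.5, 49.6 and 100.4 CPM in AOS-FMT and 13.8, 16.5 and 18.5 CPM in busulfan, with a log2 fold change of 2.19 ± 0.28 (edgeR adjusted p = 0.0226). Its AOS-FMT libraries differed widely among themselves, and the lowest still exceeded the highest library elsewhere, a control library at 24.7 CPM.

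Slc25a25 and Hp encode a mitochondrial carrier and a plasma protein. Slc25a25 (227731, chromosome 2, 32414487 to 32451470), which moves ATP-magnesium and phosphate across the inner mitochondrial membrane under the control of calcium, had 15.2, 16.7 and 23.3 CPM in AOS-FMT and 8.79, 9.25 and 8.54 CPM in busulfan. The busulfan libraries lay close together, and the log2 fold change was 1.05 ± 0.16 (edgeR adjusted p = 0.0457). Hp (15439, chromosome 8, 109575128 to 109579172), haptoglobin, the plasma protein that captures free haemoglobin, had 5.79, 12.5 and 11.8 CPM in AOS-FMT and 1.57, 1.87 and 2.45 CPM in busulfan. The log2 fold change was 2.35 ± 0.36 (edgeR adjusted p = 0.0457). AOS-FMT replicates 2 and 3, whose Hp levels were close, had liver scores of 2.90 and 5.87. With the liver score as a covariate the log2 difference of Hp was 2.25 ± 0.49 (edgeR adjusted p = 0.315).

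The calls depended on the busulfan libraries and on the covariates. No gene was called without busulfan replicate 1, without busulfan replicate 2, with the 6 libraries fitted alone, or with either the atrial or the liver score as a covariate; 2 were called without busulfan replicate 3, 3 without control replicate 2 or 3, and 20 without AOS-FMT replicate 1. All 138 log2 fold changes of the 6 genes over 23 alternatives were above 0, and 85 of them were called. By gene, Atf3 was called in 18 of the 23, Fosl2 and Irs2 in 17 each, Sik1 in 15, Hp in 10 and Slc25a25 in 8. Hp and Slc25a25 were called neither by limma-voom (adjusted p of 0.24 and 0.103) nor without the robust estimate in edgeR (adjusted p = 0.0547 for both). With the atrial score as a covariate Atf3 was at 2.06, Irs2 at 1.95 and Hp at 1.57 on the log2 scale (edgeR adjusted p of 0.512, 0.519 and 0.904). With the liver score as a covariate Atf3 was at 2.44, Irs2 at 1.63 and Sik1 at 1.33 (edgeR adjusted p of 0.175, 0.201 and 0.315). Fosl2 was then at 0.93 and Slc25a25 at 0.79 (edgeR adjusted p of 0.300 and 0.413).

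Levels of the called genes were set beside the atrial score of each library. AOS-FMT replicates 2 and 3 had atrial scores of 10.4 and 9.50 with Irs2 at 49.6 and 100.4 CPM, and control replicates 2 and 3 had scores of 10.3 and 9.88 with Irs2 at 24.7 and 13.5 CPM. AOS-FMT replicate 1 had a lower atrial score, 6.57, than busulfan replicate 3, at 7.28, and had 73.5 CPM of Irs2 against 18.5 CPM in that library. Its liver score was 2.75, close to 2.56 in Con-FMT replicate 1, where Irs2 was at 16.1 CPM. The highest liver score, 5.87, was that of AOS-FMT replicate 3. That library also had the highest level of Irs2, Sik1, Fosl2 and Slc25a25, and not of Atf3 or Hp. For Hp, AOS-FMT replicate 1, with an atrial score of 6.57, had 5.79 CPM, below the 7.16 CPM of Con-FMT replicate 3, with a score of 6.25. The part of either score in the called differences was not tested beyond the covariate fits.

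**Figure D2:**
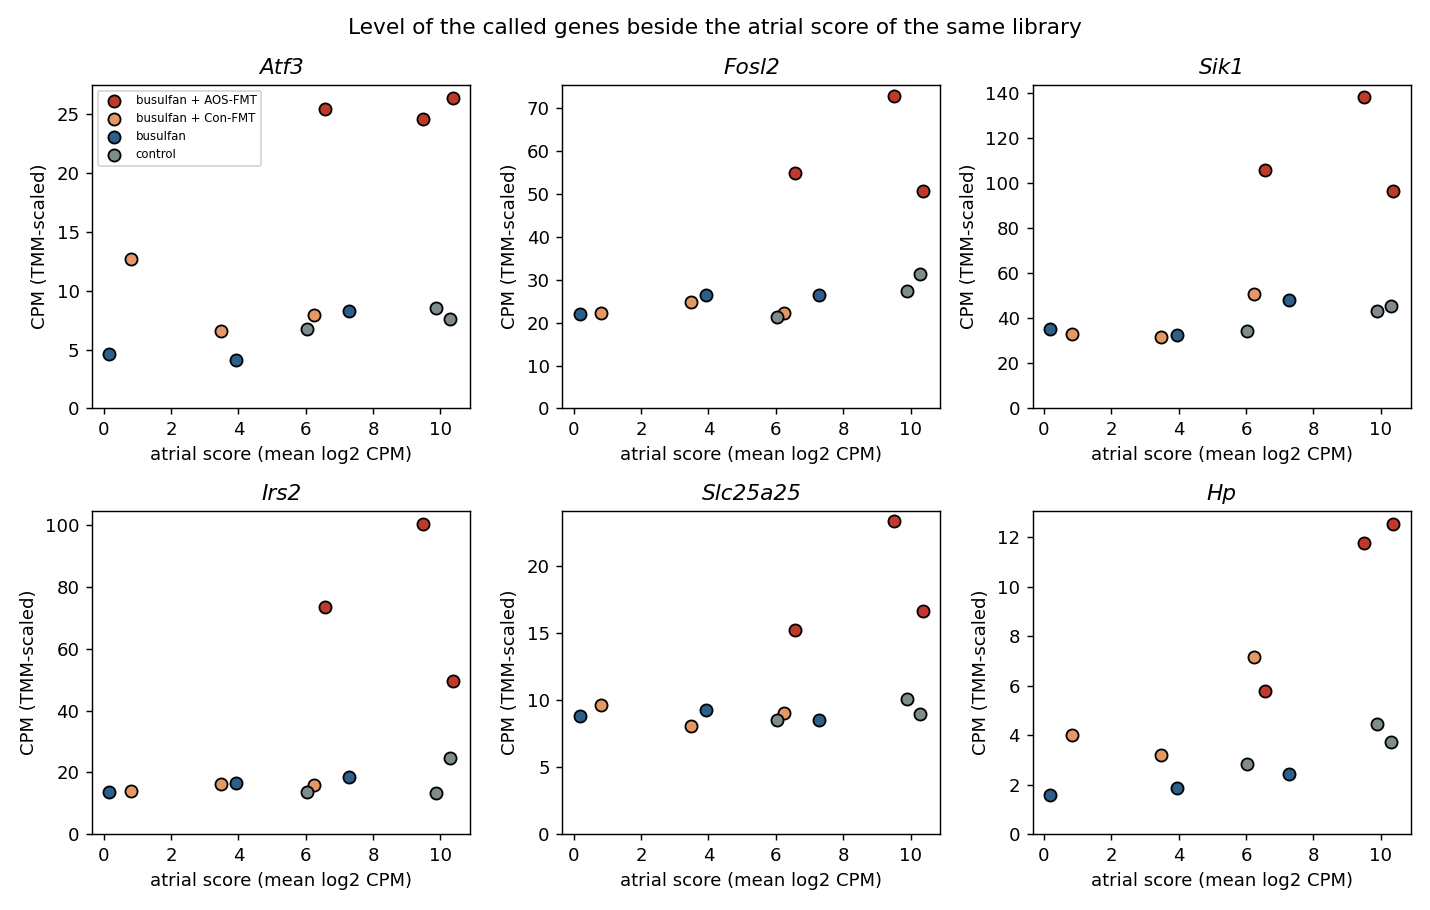
Level in CPM of the 6 called genes on the vertical axis against the atrial score of the same library on the horizontal axis, 1 point for each of 12 libraries, coloured by group. The 3 AOS-FMT libraries are the highest points in every panel except that of Hp, where 1 of them (5.79 CPM) lies below a Con-FMT library (7.16 CPM). Control libraries with scores of 9.88 and 10.3 lie below the AOS-FMT libraries.

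Promoter windows of the called genes were read to show which of the cAMP and AP-1 elements they hold. RefSeq windows of GRCm38.p6, 250 bases before to 50 after a start, matched 4 of the 6 called genes, and Hp and Sik1 had none. Both strands were searched for TGACGTCA, the full cAMP response element, TGACG, its shorter form, TGANTCA, the AP-1 site, and CACGTG, an E-box. A full element contains TGACG on both strands, and capitals mark matches, with CGTCA being TGACG read from the opposite strand. Nr4a3, which was not called, is shown because it held 4 TGACG matches. Sequences run 5′ to 3′ on the strand of the gene.

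Atf3, chr1:191183284-191183583, minus strand: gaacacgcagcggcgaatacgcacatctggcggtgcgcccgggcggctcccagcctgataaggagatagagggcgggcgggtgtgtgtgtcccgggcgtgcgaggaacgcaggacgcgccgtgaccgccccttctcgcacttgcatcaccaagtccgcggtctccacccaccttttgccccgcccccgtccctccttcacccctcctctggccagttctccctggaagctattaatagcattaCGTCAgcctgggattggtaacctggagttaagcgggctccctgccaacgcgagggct

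Irs2, chr8:11008880-11009179, minus strand: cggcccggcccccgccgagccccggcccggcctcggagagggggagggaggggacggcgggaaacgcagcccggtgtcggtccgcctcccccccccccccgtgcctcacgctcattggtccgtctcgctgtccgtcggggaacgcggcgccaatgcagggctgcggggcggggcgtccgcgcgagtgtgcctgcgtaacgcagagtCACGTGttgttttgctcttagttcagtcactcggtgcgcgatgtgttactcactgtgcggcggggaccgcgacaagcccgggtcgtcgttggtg

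Slc25a25, chr2:32424017-32424316, minus strand: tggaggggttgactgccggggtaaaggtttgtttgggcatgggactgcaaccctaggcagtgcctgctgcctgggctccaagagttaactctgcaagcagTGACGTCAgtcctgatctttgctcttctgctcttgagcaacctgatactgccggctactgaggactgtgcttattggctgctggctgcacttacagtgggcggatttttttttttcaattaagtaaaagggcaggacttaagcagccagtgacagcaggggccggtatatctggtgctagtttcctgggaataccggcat

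Nr4a3, chr4:48045055-48045354, plus strand: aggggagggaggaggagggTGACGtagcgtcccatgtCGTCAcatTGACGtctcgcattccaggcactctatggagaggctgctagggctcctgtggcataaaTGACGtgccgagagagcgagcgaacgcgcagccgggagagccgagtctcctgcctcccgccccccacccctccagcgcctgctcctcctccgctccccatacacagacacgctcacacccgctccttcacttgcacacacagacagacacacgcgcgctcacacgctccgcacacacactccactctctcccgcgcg

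Slc25a25 held a full cAMP response element at this start, as did 1.79% of the 32851 windows in the table, and none at its 2 other starts. Atf3 held 1 TGACG match, as 20.8% of windows did at least once, and Irs2 held 1 E-box, as did 7.15%. Fosl2 held none of the motifs searched, and none of the windows printed held an AP-1 site. Nr4a1, Nr4a2 and Nr4a3 each held 4 TGACG matches, a number reached by 0.231% of windows. Such matches were also found in named genes that pointed down. Among named genes that were not called, Errfi1 and H2-Aa, above 0, and Ogdh and Mdh2, below 0, held a full element at a start. Ogdh also held 4 TGACG matches there. A match is a string of letters and says nothing of binding.

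The NR4A nuclear receptors, which act without a known ligand, were higher in every AOS-FMT library than in any of the other 9 libraries, and none of the 3 passed the test. Nr4a3 had 9.64, 10.1 and 26.8 CPM in AOS-FMT and 1.22, 2.21 and 2.199 CPM in busulfan, a log2 difference of 3.04 ± 0.48 (edgeR adjusted p = 0.0661). Nr4a2 had 6.62, 6.196 and 6.51 CPM in AOS-FMT and 0.957, 0.424 and 1.69 CPM in busulfan, a difference of 2.64 ± 0.46 (edgeR adjusted p = 0.0874). For both, the groups stood well apart. Nr4a1 had 179.9, 164 and 193 CPM in AOS-FMT and 10.4, 13.9 and 60.4 CPM in busulfan, a difference of 2.66 ± 0.90 (edgeR adjusted p = 0.302). Con-FMT replicate 3, at 59.0 CPM, and busulfan replicate 3 stood far above the other libraries of their groups.

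The AP-1 and ATF list had 15 members tested, with a median log2 fold change of 0.44 against 0.00 over all genes, and 14 lay above 0, as did 50.7% of all genes. In 8 of 15 the AOS-FMT libraries were all above the busulfan libraries, a separation seen in 10.3% of all genes, and in 0 of 15 all below, against 10.9%. Atf3 and Fosl2 were the 2 called. Fosb, an activity-induced FOS family member, had 4.19, 5.61 and 2.78 CPM in AOS-FMT and 0.435, 0.424 and 2.199 CPM in busulfan, and Jun, the partner of the FOS proteins, had 128, 201 and 174 CPM in AOS-FMT and 101, 98 and 116 CPM in busulfan (edgeR adjusted p of 0.275 for Fosb and 0.242 for Jun). Fos, named after its values were seen, had 54.4, 63.4 and 56.5 CPM in AOS-FMT and 15.1, 15.4 and 34.7 CPM in busulfan, with a log2 difference of 1.42 ± 0.60 (edgeR adjusted p = 0.348). Its Con-FMT replicate 3 was at 56.5 CPM, above the lowest AOS-FMT library.

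Compared per transcript length with the deposited TPM values, the called factors were not the most abundant of their family. Jund had 151 TPM in AOS-FMT and 117 TPM in busulfan, and Jun had 75.3 TPM in AOS-FMT and 43.8 TPM in busulfan, whereas Atf3 had 19.6 TPM in AOS-FMT and 4.06 TPM in busulfan and Fosl2 had 13.9 TPM in AOS-FMT and 5.42 TPM in busulfan. Irs2 was more abundant than its paralogue Irs1 in AOS-FMT, at 14.96 TPM against 7.16 TPM for Irs1, and less abundant in busulfan, at 3.02 TPM against 6.72 TPM. Sik1 exceeded Sik3 in AOS-FMT, at 34.96 TPM against 16.0 TPM, and had 11.03 TPM against 16.7 TPM in busulfan. The paralogues Irs1, Sik2 and Sik3 had log2 fold changes of -0.03, 0.02 and -0.16, and none was called.

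Of 32 tested members of the NR4A, EGR and other immediate early list, the median was 0.40, 24 lay above 0, and 11 were separated from busulfan upward and 1 downward, against 10.3% and 10.9% of all genes. Csrnp1, a nuclear protein induced by AXIN1, had 13, 17.04 and 19.5 CPM in AOS-FMT and 7.75, 7.55 and 10.4 CPM in busulfan (log2 difference 0.95 ± 0.20, edgeR adjusted p = 0.2). Klf6, a zinc-finger factor, had 72.03, 83.6 and 85.6 CPM in AOS-FMT and 50.05, 60.8 and 47.02 CPM in busulfan (log2 difference 0.61 ± 0.14, edgeR adjusted p = 0.232). Not every member was separated: Egr1, a zinc-finger immediate early factor, which was named after its values were seen, had 66.6, 93.4 and 64.3 CPM in AOS-FMT and 51.5, 48.8 and 85.1 CPM in busulfan, and its groups overlapped. With the atrial score as a covariate the median of this list was 0.11.

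Across the whole series, AOS-FMT libraries lay above all other 9 libraries in 126 genes, which is 0.934% of those tested, and below them in 101, or 0.749%. Among the gene lists, this upper position was held by 4 of 15 AP-1 and ATF genes (Fosb, Fosl2, Atf3, Mafk), 7 of 32 other immediate early genes (Nr4a1, Nr4a2, Nr4a3, Klf6, Btg2, Csrnp1, Rhob), 4 of 22 genes of the cAMP axis (Sik1, Pde4b, Akap12, Per1) and 5 of 24 glucocorticoid-responsive genes (Per1, Sgk1, Errfi1, Pdk4, Nfkbia). The liver list held 6 of 19. The atrial, ventricular, fibroblast, macrophage and 5 oxidative phosphorylation lists held none in the upper position, and the same lists held none in the lower one. These lists were chosen with earlier results of the data known, so the shares are descriptions.

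**Figure D3:**
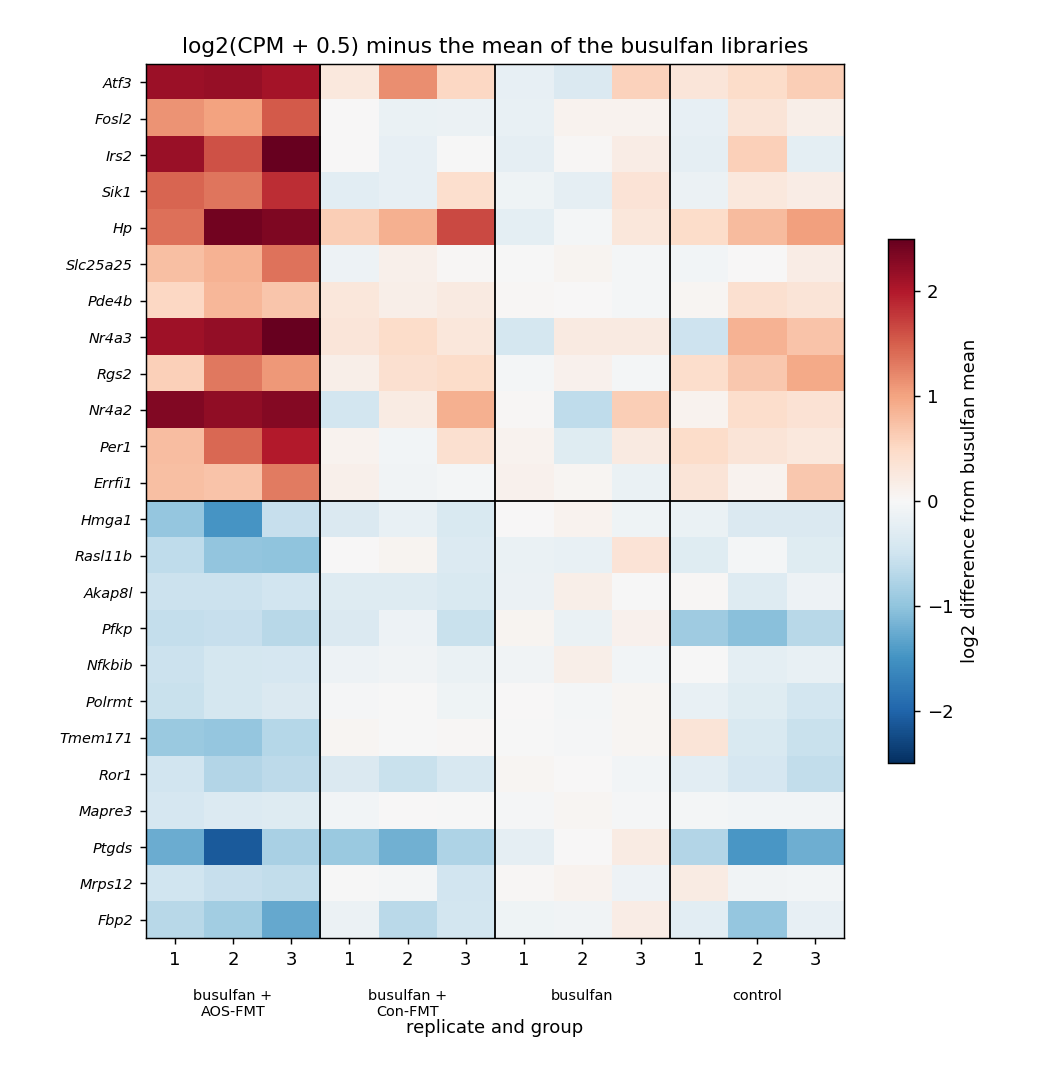
Difference of log2(CPM + 0.5) from the mean of the busulfan libraries, in colour, for the 12 genes with the smallest p among higher genes (upper block) and the 12 among lower genes (lower block) that met the naming rule, in 12 libraries. Columns are grouped as AOS-FMT, Con-FMT, busulfan and control. In the upper block the AOS-FMT columns are the most strongly coloured except for Hp and Rgs2. For Hp, AOS-FMT replicate 1 (1.37) lies below Con-FMT replicate 3 (1.65). For Rgs2, AOS-FMT replicate 1 (0.59) lies below control replicates 2 and 3 (0.68 and 0.94).

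The cAMP, CREB and salt-inducible kinase list had 22 members tested, with a median of 0.02, 12 of them above 0 and 10 below. Sik1 was the 1 called. Pde4b, a phosphodiesterase that degrades cAMP, had 51.2, 63.6 and 57.5 CPM in AOS-FMT and 36.3, 35.7 and 34.4 CPM in busulfan (log2 difference 0.70 ± 0.11, edgeR adjusted p = 0.0534). Rgs2, which shortens G protein signals, had 37.3, 62.2 and 52.7 CPM in AOS-FMT and 23.7, 26.5 and 23.8 CPM in busulfan (log2 difference 1.04 ± 0.18, edgeR adjusted p = 0.0713). Both showed no overlap with busulfan and missed the threshold. Prkaca, the catalytic subunit of protein kinase A, pointed the other way, at 291, 265 and 292 CPM in AOS-FMT and 339, 318 and 373 CPM in busulfan (-0.28, edgeR adjusted p = 0.31).

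The insulin and IGF list had 25 members tested and a median of -0.00, with 12 above 0 and 13 below, and Irs2 was the 1 called. Igf1, the growth factor itself, had 21.4, 46.1 and 28.9 CPM in AOS-FMT and 15.1, 18.2 and 17.3 CPM in busulfan, and Pdk4, the kinase that closes pyruvate dehydrogenase, had 307, 371 and 337 CPM in AOS-FMT and 281, 151 and 234 CPM in busulfan. Both were separated from busulfan and neither passed (edgeR adjusted p of 0.295 for Igf1 and 0.302 for Pdk4). Among 21 mitochondrial carriers, the median was 0.00 and Slc25a25 the 1 called. Among 24 glucocorticoid-responsive genes the median was 0.39, 18 lay above 0, and 9 were separated upward and 3 downward, against 10.3% and 10.9% of all genes. Without AOS-FMT replicate 3 this median was 0.25, and with the liver score as a covariate it was 0.19.

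Within the glucocorticoid list, Tsc22d3, the leucine zipper protein GILZ, had 89.5, 101 and 141 CPM in AOS-FMT and 67.02, 63.5 and 67.1 CPM in busulfan (log2 difference 0.75 ± 0.14, edgeR adjusted p = 0.117). Errfi1, which inhibits the EGF receptor, had 55.01, 53.7 and 80.7 CPM in AOS-FMT and 35.2, 33.6 and 29.2 CPM in busulfan (log2 difference 0.95 ± 0.18, edgeR adjusted p = 0.114). Per1, a clock repressor that both glucocorticoids and cAMP induce, had 19.4, 31.04 and 45.8 CPM in AOS-FMT and 11.8, 8.91 and 13.2 CPM in busulfan (log2 difference 1.5 ± 0.26, edgeR adjusted p = 0.0992). Other genes of the list pointed down, among them Klf15, at 48.3, 56.5 and 60.8 CPM in AOS-FMT and 62.3, 61.8 and 66.1 CPM in busulfan. The 19 clock genes had a median of -0.01, with 3 separated upward and 3 downward, counts near the 10.3% and 10.9% of all genes.

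Inflammatory and immune transcripts were described by the same measures. The inflammatory list had 29 members tested, a median of 0.23 and 7 separated upward and 1 downward, and the chemokine list had 21, a median of 0.52 and 6 upward and 0 downward, where all genes had 10.3% upward and 10.9% downward. The inflammatory median was 0.13 without AOS-FMT replicate 2 and 0.07 with the atrial covariate, and the chemokine median was 0.33 without busulfan replicate 3. None of their members was called. Il1b, the pyrogenic cytokine, had 1.68, 5.03 and 4.46 CPM in AOS-FMT and 0.696, 0.509 and 0.254 CPM in busulfan, and Ccl11, an eosinophil attractant, had 5.62, 9.81 and 3.36 CPM in AOS-FMT and 2.26, 1.44 and 1.18 CPM in busulfan (edgeR adjusted p of 0.168 for Il1b and 0.234 for Ccl11). Nfkbia, the inhibitor that NF-kB induces against itself, had 54.3, 60.7 and 68.1 CPM in AOS-FMT and 46.3, 46.6 and 36.9 CPM in busulfan. The 23 macrophage markers had a median of 0.51, 21 of them above 0 and 11 separated upward (10.3% of all genes), and summed to 1252, 1532 and 1080.04 CPM in AOS-FMT against 719, 999 and 846 CPM in busulfan. Their sums in Con-FMT (1032, 1518 and 871 CPM) and control (1118, 1060 and 1476 CPM) overlapped AOS-FMT. The macrophage median was 0.21 for Con-FMT over busulfan, which shares the busulfan libraries, and 0.23 for AOS-FMT over Con-FMT.

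MHC class II genes, which present antigen on macrophages, dendritic and B cells, had 9 members tested, all above 0, with a median of 0.87. H2-Aa had 118, 179 and 130.4 CPM in AOS-FMT and 65.3, 62.8 and 65.04 CPM in busulfan, and the log2 difference was 1.15 ± 0.23 (edgeR adjusted p = 0.179). Con-FMT libraries also lay above the busulfan libraries, at 109.7, 166 and 92.7 CPM. The median of the 9 genes was 0.78 for Con-FMT over busulfan, a comparison that shares the busulfan libraries, and -0.08 for AOS-FMT over Con-FMT.

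The acute-phase list, to which Hp belongs, had 16 members tested, a median of 1.59 and 10 separated upward, against 10.3% of all genes. Its median was 0.48 with the atrial covariate, 0.58 with the liver covariate, and 0.84 among members with at least 1 CPM in every group. The 19 liver markers had a median of 3.21, all 19 above 0 and 15 separated upward, against 10.3% of all genes. Acute-phase list sums were 284, 402 and 503 CPM in AOS-FMT and 161, 179 and 235 CPM in busulfan. In control they were 206, 407 and 481 CPM, which overlapped AOS-FMT. Liver list sums were 152, 249.96 and 960.2 CPM in AOS-FMT, 65.2, 76.3 and 96.3 CPM in busulfan and 127, 72.0 and 99.7 CPM in Con-FMT. In control the liver list sums were 62.6, 159 and 102 CPM, and replicate 2 there lay above AOS-FMT replicate 1. Alb had 26.5, 28.3 and 302 CPM in AOS-FMT and 10.8, 9.33 and 11.7 CPM in busulfan, and Fgb, a fibrinogen chain, had 1.84, 2.65 and 27.6 CPM in AOS-FMT and 1.39, 0.849 and 0.9303 CPM in busulfan, replicate 3 of AOS-FMT being the highest for both. Without AOS-FMT replicate 3 the liver list median was 1.23.

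Muscle chamber markers were also unequal. All 16 atrial markers lay above 0, as did 50.7% of all genes, with a median of 2.77, and 4 were separated upward, against 10.3% of all genes. Sln, which regulates the calcium pump of atrial muscle, had 165, 1299 and 819 CPM in AOS-FMT and 1.74, 41.9 and 148 CPM in busulfan, and Nppa, atrial natriuretic peptide, had 952, 17507 and 7305 CPM in AOS-FMT and 251, 855 and 2217 CPM in busulfan. Their groups overlapped for Nppa and not for Sln, and neither was called (edgeR adjusted p of 0.416 for Sln and 0.382 for Nppa). All 12 ventricular markers lay below 0, as did 49.3% of all genes, with a median of -0.56, and 8 were separated downward, against 10.9% of all genes. Without AOS-FMT replicate 2 the ventricular median was -0.35, and with the atrial score as a covariate it was -0.27. Myl3, the ventricular essential light chain, had 7222, 3644 and 5253 CPM in AOS-FMT and 9812, 9478 and 8596 CPM in busulfan.

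Contractile and energy genes mostly lay below 0, and none was called. Of 30 sarcomere and Z-disc genes, 26 lay below 0, with a median of -0.39, and 15 were separated downward, against 10.9% of all genes. The median was -0.24 without AOS-FMT replicate 2 and -0.26 with the atrial covariate. Myh7, the slow myosin heavy chain, had 2221, 1996 and 1677 CPM in AOS-FMT and 3427, 4393 and 3112 CPM in busulfan (log2 difference -0.89 ± 0.21, edgeR adjusted p = 0.234). Mybpc3, myosin-binding protein C, had 3463, 2534 and 3367 CPM in AOS-FMT and 4405, 4963 and 4748 CPM in busulfan (log2 difference -0.59 ± 0.17, edgeR adjusted p = 0.279). Myh6 had 45126, 40905 and 41812 CPM in AOS-FMT and 58635, 71854 and 55086 CPM in busulfan, with no overlap.

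Of 76 nuclear genes of the 5 oxidative phosphorylation complexes, 75 lay below 0 and 46 were separated downward, against 10.9% of all genes, with a median of -0.33, a range from -0.67 to 0.03 and a smallest edgeR adjusted p of 0.279. Complex I had 25 of 36 separated downward, complex II 1 of 4, complex III 4 of 9, complex IV 7 of 12 and complex V 9 of 15. For Con-FMT over busulfan, which shares the busulfan libraries, the medians of complexes I to V were -0.21, -0.07, -0.24, -0.24 and -0.16. For AOS-FMT over Con-FMT they were -0.16, -0.13, -0.15, -0.15 and -0.10. Complex I genes summed to 13221, 10990 and 12665.5 CPM in AOS-FMT and 16559, 15312 and 14714 CPM in busulfan. Control libraries spread more widely, at 19798, 11545.5 and 15035 CPM, and overlapped both groups. Cox6a2, the striated muscle form of a cytochrome oxidase subunit, had 3689, 2820.2 and 2881 CPM in AOS-FMT and 5086, 4584 and 4804 CPM in busulfan (log2 difference -0.62 ± 0.18). Uqcr11, a subunit of complex III, had 529, 499 and 503 CPM in AOS-FMT and 795, 903 and 737 CPM in busulfan (log2 difference -0.67 ± 0.21). The atrial score differed between the same libraries, and with it as a covariate the median of the 76 genes was -0.09, with 62 below 0. Without any scaling beyond library size, the median of all genes moved to 0.14 and that of the 76 genes to -0.20, with 71 below 0.

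Other fuel pathways had the same sign. All 22 genes of pyruvate entry and the TCA cycle lay below 0 (median -0.22, 7 separated downward), as did 28 of 31 of fatty acid uptake and oxidation (median -0.27, 6 downward and 2 upward) and 20 of 22 of glycolysis (median -0.28, 12 downward and 1 upward). Of all genes, 10.9% were separated downward and 10.3% upward. Idh2, mitochondrial isocitrate dehydrogenase, had 1316, 1015 and 1243 CPM in AOS-FMT and 1927, 1783 and 1952 CPM in busulfan (log2 difference -0.66 ± 0.16, edgeR adjusted p = 0.232). Fabp3, the fatty acid carrier of heart muscle, had 4193, 2596 and 3316 CPM in AOS-FMT and 5523, 5455 and 4750.2 CPM in busulfan. With the atrial score as a covariate these medians were -0.03 for the TCA cycle, -0.06 for fatty acids and -0.15 for glycolysis, and without AOS-FMT replicate 2 they were -0.09, -0.10 and -0.19 in the same order. The TCA cycle median was -0.33 without AOS-FMT replicate 1 and also without busulfan replicate 2.

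Stromal transcripts pointed upward. All 18 fibroblast markers lay above 0, with a median of 0.72 and 12 separated upward, and 41 of 45 extracellular matrix genes lay above 0, with a median of 0.36 and 16 separated upward, against 10.3% of all genes. Dpt, dermatopontin of the matrix, had 133, 254 and 160.4 CPM in AOS-FMT and 86.6, 99.9 and 119.6 CPM in busulfan (log2 difference 0.84 ± 0.23, edgeR adjusted p = 0.279). Col1a1, the main fibrillar collagen chain, had 246, 469.6 and 229.8 CPM in AOS-FMT and 223, 256 and 249.6 CPM in busulfan, and its groups overlapped. With the atrial score as a covariate the medians were 0.28 for fibroblast markers and 0.09 for the matrix, and without AOS-FMT replicate 2 they were 0.44 and 0.21. For Con-FMT over busulfan, which shares the busulfan libraries, the medians were 0.34 and 0.25, and for AOS-FMT over Con-FMT 0.29 and 0.10. Endothelial and mural markers had medians of 0.12 and 0.07, and the endothelial median was 0.005 without busulfan replicate 3.

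**Figure D4:**
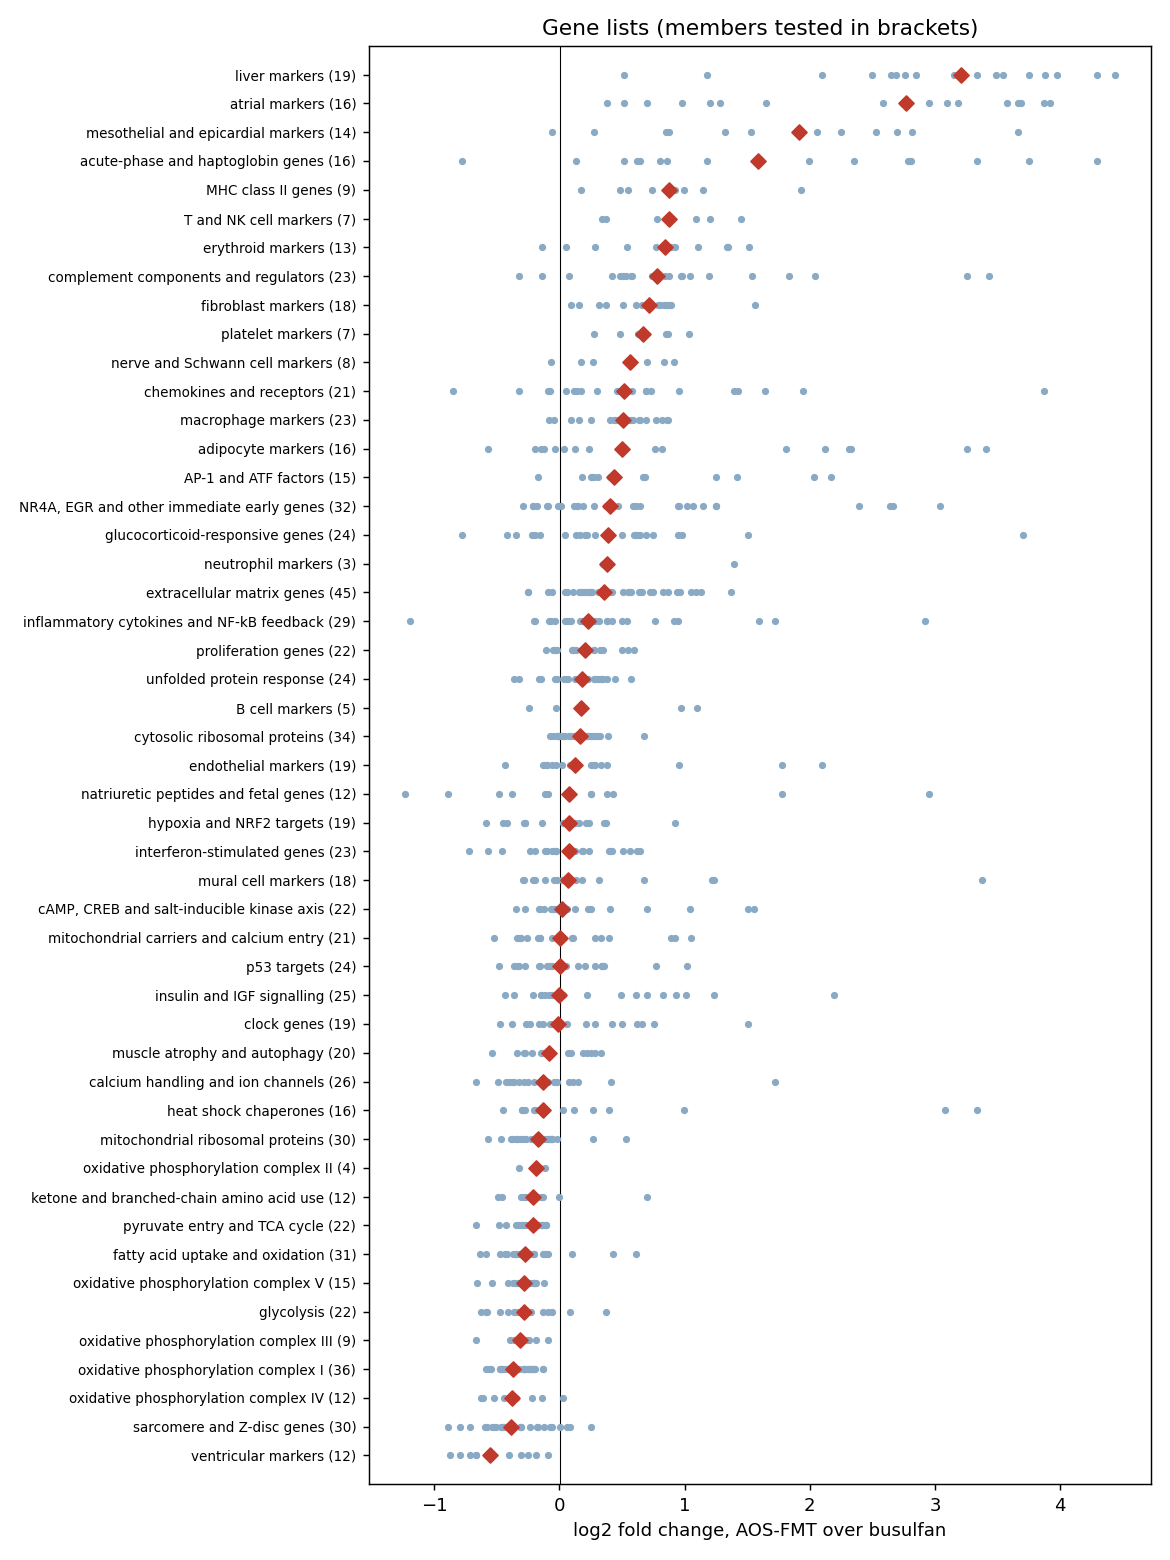
Log2 fold change of AOS-FMT over busulfan for each tested member of 49 gene lists (blue points) and the list median (red diamond), ordered by median. The vertical line marks the median of all 13489 genes, 0.00. Liver (3.21), atrial (2.77), mesothelial (1.91) and acute-phase (1.59) medians are the 4 highest, and the ventricular median (-0.56) is the lowest. Without AOS-FMT replicate 2 the mesothelial median was 0.42.

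Stress lists and the p53 pathway had medians nearer to 0. The 24 p53 targets had a median of 0.00, and Cdkn1a, the cell-cycle inhibitor induced by p53, had 75.4, 88.7 and 86.8 CPM in AOS-FMT and 65.02, 80.2 and 72.6 CPM in busulfan, with groups that overlapped. Gdf15, a stress cytokine, had 4.53, 6.07 and 5.34 CPM in AOS-FMT and 5.396, 8.23 and 8.71 CPM in busulfan. In the unfolded protein response list 18 of 24 lay above 0, with a median of 0.18. Hspa1a, an inducible HSP70 whose near-identical copy Hspa1b may share its reads, had 5.37, 33.5 and 49.7 CPM in AOS-FMT and 1.57, 1.87 and 5.33 CPM in busulfan, while the heat shock list as a whole had a median of -0.13, which was 0.02 without AOS-FMT replicate 2.

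Genes with the smallest p among lower genes were Hmga1, Rasl11b, Akap8l and Pfkp. Rasl11b, a small GTPase, had 25.2, 19.8 and 19.4 CPM in AOS-FMT and 35.3, 34.9 and 50.2 CPM in busulfan (log2 difference -0.91 ± 0.17, edgeR adjusted p = 0.113), and Ptgds, prostaglandin D synthase, had 184, 102 and 248 CPM in AOS-FMT and 376, 443 and 502 CPM in busulfan (log2 difference -1.30 ± 0.28, edgeR adjusted p = 0.219). Ptgds also lay below the busulfan mean in every Con-FMT library (-0.93, -1.21 and -0.76 on the log2 scale) and every control library (-0.73, -1.45 and -1.22). Pfkp was lower in every control library than in any AOS-FMT library. Hmga1, Rasl11b and Akap8l were lower in every AOS-FMT library than in any other library of the series. Hmga1, a chromatin protein, and Hmga1b, a near-identical copy, were uncertain. Hmga1 had 71.3, 49.4 and 93.7 CPM in AOS-FMT and 140.04, 148 and 129.99 CPM in busulfan, while Hmga1b had 21.8, 41.7 and 18.1 CPM in AOS-FMT and 0, 0 and 0.254 CPM in busulfan. Their sum was 93.1, 91.1 and 112 CPM in AOS-FMT, against 140.04, 148 and 130.2 CPM in busulfan. The sum was 124, 146 and 107 CPM in Con-FMT and 124, 108 and 109 CPM in control. Summed in this way, AOS-FMT overlapped Con-FMT and control and not busulfan.

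**Figure D5:**
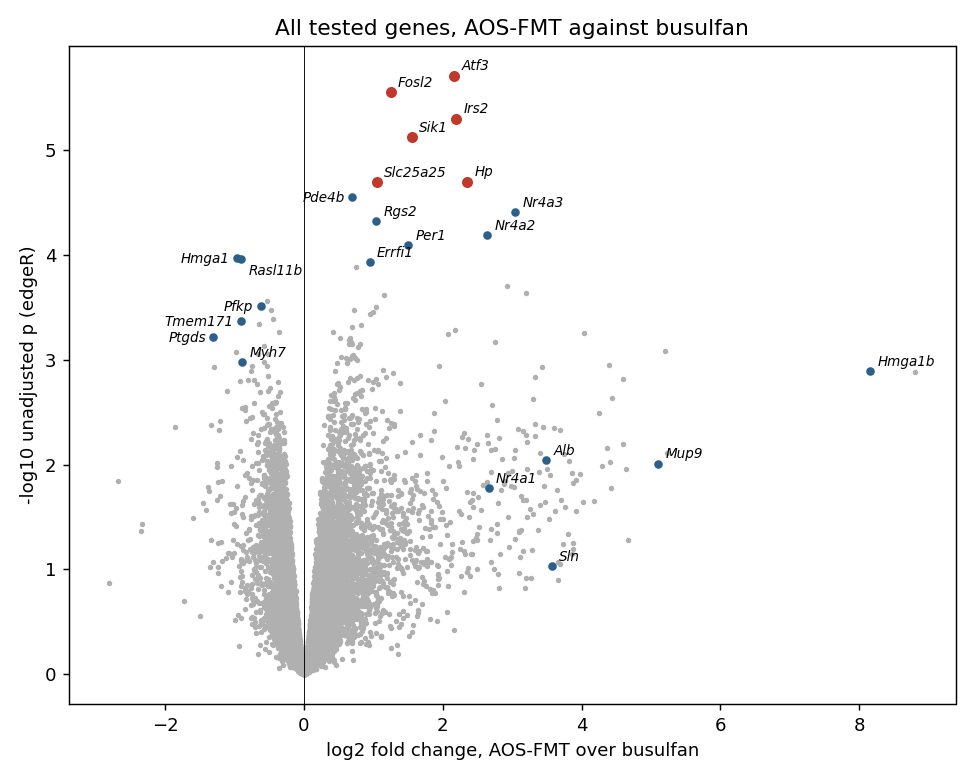
Log2 fold change of AOS-FMT over busulfan (horizontal axis) and -log10 of the unadjusted edgeR p (vertical axis) for 13489 genes. Red points are the 6 called genes and blue points are named genes that were not called.

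Setting AOS-FMT against Con-FMT tests whether the FMT kinds differ, and it is also the difference of their effects against busulfan, which share the busulfan libraries. The test called 4 genes higher, 0.0297% of those tested, and 0 lower, with 523 higher (3.88%) and 317 lower (2.35%) at an unadjusted p under 0.05. There were 26 higher and 6 lower by DESeq2, and 4 higher and 0 lower by limma-voom. Fosl2, Sik1 and Irs2 were among the 4, and over 23 alternatives they were called in 17, 11 and 13. By edgeR, the one tool run for it, Con-FMT against busulfan called 0 in either direction, with 238 higher (1.76%) and 120 lower (0.89%) at an unadjusted p under 0.05. Fosl2 had 24.9, 22.2 and 22.3 CPM in Con-FMT and a log2 difference of 1.36 ± 0.16 (edgeR adjusted p = 0.0154). Sik1 had 31.7, 32.8 and 50.8 CPM in Con-FMT, with a log2 difference of 1.56 ± 0.21 (adjusted p = 0.0326), and Irs2 had 16.1, 13.99 and 16.05 CPM, with 2.27 ± 0.28 (adjusted p = 0.0246). Their Con-FMT libraries lay near the busulfan libraries.

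Gvin1, a large interferon-inducible GTPase whose copies may share reads, was the other gene called against Con-FMT, and it was called in 4 of the 23 alternatives. It had 11.5, 9.94 and 14.99 CPM in AOS-FMT and 3.84, 4.58 and 4.49 CPM in Con-FMT (log2 difference 1.49 ± 0.22, edgeR adjusted p = 0.04998), with busulfan in between at 7.66, 7.38 and 6.34 CPM. Atf3 at 1.49 ± 0.25 (adjusted p = 0.137), Slc25a25 at 1.04 ± 0.16 (adjusted p = 0.0594) and Hp at 1.07 ± 0.33 (adjusted p = 0.734) on the log2 scale were not called against Con-FMT. Hp had 3.21, 4.01 and 7.16 CPM in Con-FMT, so its level there was nearer to AOS-FMT than those of Irs2 or Sik1. No gene was called against Con-FMT with only the 6 libraries of that comparison, with either covariate, or without Con-FMT replicate 1 or 2, and 1 to 4 were called with any other single library left out.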

How the data were processed

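RNA-seq of mouse hearts was analysed from the submitters' deposited table. Its estimated counts per gene, per the file headers, were 94.7% to 95.3% whole within 1e-09 in each library and were rounded. The authors also deposited TPM values, per the file headers, which were used here only to compare levels between genes, and FPKM values and group averages, which were not used. The submitters' processing notes list Bowtie 0.12.2 and mm10. How reads were counted, with which annotation and whether by strand is not given in the sources used here. Of 17536 gene IDs, 17483 matched RefSeq genes of GRCm38.p6 (mm10).

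Genes were filtered with filterByExpr, scaled by TMM (factors 0.908 to 1.08) and tested by robust quasi-likelihood in edgeR 4.0.16 (R 4.3.3). A single fit took all 12 libraries and had no term besides group. Its common biological coefficient of variation was 18.6%, and log2 fold changes had a median standard error of 0.163. Adjusted p-values are Benjamini-Hochberg over 13489 genes. An exact permutation test of 3 against 3 cannot go below 0.1 and was not used. Replicates of a group differed beyond sampling noise (chi-square per degree of freedom 9.26 to 75.3). The steps were tested on simulated data. Alternatives used DESeq2 1.42.0, limma-voom (limma 3.58.1), other scalings and filters, covariates, a replicate block and leaving out each library.

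Members of the gene lists, and the comparison itself, were chosen with earlier results of these data known. Named genes are all called genes, the 12 smallest p in each direction and the 5 largest changes among genes whose groups did not overlap, with a higher mean of at least 5 CPM, up to 4 members of each list with at least 3 such members in one direction, and 14 fixed genes. Fos, Egr1, Gvin1, Jund, Hmga1b, Tnnt2, the paralogues Irs1, Sik2 and Sik3 and the genes listed as above the other 9 libraries were named beyond this rule after their values were seen. RefSeq promoter windows are credited to GRCm38.p6.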

Additional observations from a re-analysis of the deposited data

Results flagged for a closer look

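For 3 genes the effect of AOS-FMT against busulfan differed from the effect of Con-FMT against busulfan by the edgeR test of AOS-FMT against Con-FMT, which is the test of that difference. The log2 difference was 1.361 for Fosl2, 1.562 for Sik1 and 2.273 for Irs2, with Benjamini-Hochberg adjusted p of 0.0154, 0.0326 and 0.0246. All 3 AOS-FMT libraries lay above all 3 Con-FMT libraries for each gene. The 3 were called neither with the 6 libraries of that comparison alone nor with the atrial or liver score as a covariate.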

How the results depend on the processing

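Main counts were 6 higher and 0 lower for AOS-FMT against busulfan, and 4 higher and 0 lower for AOS-FMT against Con-FMT. Against busulfan the higher count was 100 with DESeq2, 14 with a replicate block, and 0 with the atrial covariate, the liver covariate or the 6 compared libraries alone, and it ranged from 0 to 20 when single libraries were left out. The lower count was 31 with DESeq2 and 0 to 2 with single libraries left out. Against Con-FMT the higher count was 26 with DESeq2, 6 with a replicate block, 2 with library size only and 0 with either covariate or the 6 compared libraries alone, ranging from 0 to 4 with single libraries left out, and the lower count was 6 with DESeq2 and 0 to 1 with libraries left out. The cause of these changes was not tested. Deviations of AOS-FMT and busulfan libraries with the same replicate number correlated at 0.314, 0.055 and 0.07, and those with different numbers at -0.31 to 0.231. For AOS-FMT and Con-FMT libraries the same numbers gave 0.129, -0.119 and -0.0422, and different numbers -0.277 to 0.29. So few pairs cannot decide whether the replicate numbers pair libraries. The replicate block is therefore given here only. Of its 6 calls against Con-FMT, 2 were among the main 4, Fosl2 and Sik1, while Irs2 and Gvin1 had adjusted p of 0.0544 and 0.0558. Another size factor, the other filters, limma-voom and the fit without a robust estimate gave 4 to 9 higher calls against busulfan.

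Of 4034 log2 fold changes of named genes under alternatives, 12 changed sign. With the atrial covariate Nr1d2 was at -0.0301, Myl4 at -0.0228, Sln at -0.0785, Scd1 at -0.22, Nppa at -0.10 and Nppb at -0.21. With the liver covariate Mug1 was at -0.0298, Fgb at -0.28 and Alb at -0.0751. Sln and Myl4 are members of the atrial score, and Alb and Fgb of the liver score. Their values under that covariate were therefore largely fixed in advance. With library size only Trim63 was at 0.0452. With single libraries left out, Col1a1 ranged from -0.0237 (without AOS-FMT replicate 2) to 0.557 (without AOS-FMT replicate 3) and Trim63 from -0.149 (without AOS-FMT replicate 3) to 0.0385 (without AOS-FMT replicate 2). Log2 fold changes had a median standard error of 0.163 with 3 libraries a group, and replicates differed by 9.26 to 75.3 times the sampling noise (chi-square per degree of freedom), so small differences may go uncalled.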
